A study of Mus musculus with 8 samples.

Results

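Genes that control glycogen storage and glycolytic flux were examined in livers depleted of HNF6 and in wild-type livers. The set was given as 9 genes, namely Gys2, Pygl, Ppp1r3b, Ppp1r3c, Ppp1r3g, Gckr, Pfkfb1, Pfkfb3 and Pklr, and each was represented by the brightest probe set that the platform annotation pairs with its symbol. This rule found 8 of the 9, each with 1 probe set, among 19540 genes in all. The expression of Pfkfb1 was not analysed here. The 8 arrays comprised 4 labelled HNF6KO and 4 labelled WT. Both groups were livers of C57B/6 males aged 12 weeks on normal chow and a normal light and dark schedule, with no treatment, sampled at ZT10, which the design gives as 5 pm. HNF6 is the homeodomain factor encoded by Onecut1. The labels give neither the means of its depletion nor the cells depleted nor the number of animals behind the arrays. The p-values therefore measure the spread between arrays, which may be technical.

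The liver stores glucose as glycogen after a meal and releases it between meals. Glycogen synthase lengthens the polymer and glycogen phosphorylase shortens it, and glycogen-targeting subunits of protein phosphatase 1 bring the phosphatase to the particle, where it activates the synthase and inactivates the phosphorylase. Glycolysis is set by regulators at its entry, by the bifunctional enzymes that make and remove fructose 2,6-bisphosphate in its middle, and by pyruvate kinase at its end. HNF6 was identified in the rat as a protein that binds the liver promoter of Pfkfb1, which encodes the liver form of the bifunctional enzyme.

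The deposited values ran from 3.69 to 14.1 and were read as log2 expression. The Onecut1 transcript averaged 8.93 ± 0.31 on HNF6KO arrays and 10.25 ± 0.30 on WT arrays (SD, n = 4 each), with no overlap (limma, adjusted p = 0.0273). That call was lost without HNF6KO array 3 or 4 or without WT array 1, 3 or 4, with adjusted p between 0.0633 and 0.0954. It was also lost without both HNF6KO arrays 3 and 4 (limma, adjusted p = 0.0983). The hepatocyte markers measured (5 of 6) had mean levels of 13.71 to 13.83 on HNF6KO arrays and 13.66 to 13.75 on WT arrays, led by Alb at 14.05 in HNF6KO and 13.97 in WT. None of these 5 passed in limma, beside 0.399% of all genes. At an unadjusted p of 0.05, 1 (Cps1) was higher, beside 4.3% of all genes. Without overlap, 2 (Alb and Ttr) were higher, beside 479 of 19540 genes. In both groups arrays 1 and 2 stood apart from arrays 3 and 4. The first principal component of the deviations from the group means held 47.1% of their variance and gave these pairs opposite signs in each group. Its values were 0.452, 0.402, -0.395 and -0.459 on HNF6KO arrays 1 to 4. On WT arrays 1 to 4 they were 0.312, 0.185, -0.325 and -0.172. The mean log2 level of the 11 Kupffer cell markers was higher on arrays 3 and 4 than on arrays 1 and 2 in each group. It was 8.27, 7.74, 9.34 and 9.10 on HNF6KO arrays 1 to 4. On WT arrays 1 to 4 it was 7.69, 8.54, 8.80 and 8.94, where array 2 lay nearer to array 3 than to array 1. The labels name no batch, so the genes were also fitted with the array split as a term (arrays 1 and 2 against arrays 3 and 4). This fit was chosen with earlier results of these data known, and the split was read from these same arrays. A term chosen by the spread it takes up can make p-values and intervals too small, so calls from this fit are descriptive. The loss of Onecut1 was itself unequal on the sides of this split. Its log2 change came to -0.83 ± 0.12 (SE) from arrays 1 and 2, and to -1.80 ± 0.12 from the other pair. No p-value for the gap itself is given here. Changes given below for each side of the split thus come with different losses of Onecut1. They were taken from a single fit of all 8 arrays. Each change rests on the arrays of its side, while its SE and p pool the spread of both sides.

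None of the 8 genes passed the test over all genes, although the glycolytic activator Pfkfb3 had its 4 HNF6KO values below its 4 WT values. At an adjusted p of 0.05 in limma, 0 of the 8 passed, beside 0.399% of all genes tested. At an unadjusted p of 0.05, 1 was higher in HNF6KO (Pygl, beside 4.3% of all genes) and 1 was lower (Pfkfb3, beside 5.21%). Of the 8, only Pfkfb3 had groups that did not overlap, beside 5.67% of all genes in either direction and 3.21% with the lower level in HNF6KO. The log2 changes, HNF6KO minus WT, ran from -1.35 to 0.53 with a median of -0.16, against -0.01 over all genes, and 3 lay above 0 and 5 below. With the array split as a term, 2 of the 8 passed, Pfkfb3 and Ppp1r3g, beside 1.25% of all genes, and both fell, beside 0.706% of all genes. The split was read from the same arrays, so p-values of that fit can be too small. The other 6 did not pass in that fit, with adjusted p between 0.0712 and 0.869.

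**Figure D1:**
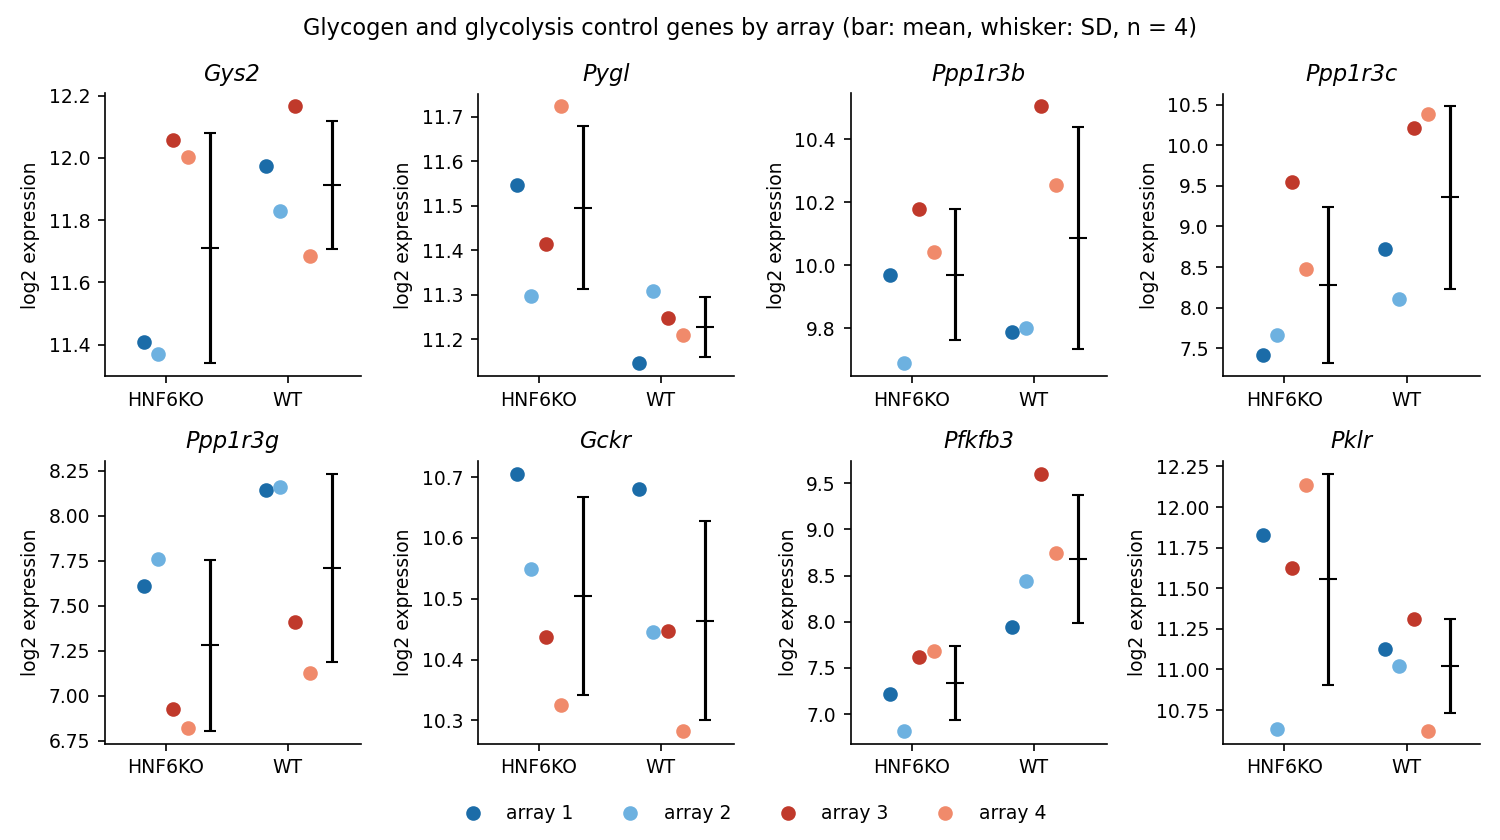
Log2 expression (y axis, a separate range for each gene) of the 8 genes on each of the 4 HNF6KO and 4 WT arrays, coloured by array number, with the mean and SD of each group as bar and whisker. The Pfkfb3 groups do not overlap, and Ppp1r3c and Ppp1r3g differ between arrays 1 and 2 and arrays 3 and 4 in both genotypes.

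Neither of the enzymes that build and break down glycogen passed the test. Gys2, the liver glycogen synthase, had log2 values of 11.41, 11.37, 12.06 and 12.00 on HNF6KO arrays 1 to 4, and of 11.97, 11.83, 12.17 and 11.68 on WT arrays 1 to 4. HNF6KO arrays 1 and 2 lay below all WT arrays, while arrays 3 and 4 lay within the WT range. The log2 change was -0.20 ± 0.18 (SE, 95% interval -0.61 to 0.20, limma, adjusted p = 0.802). Arrays 1 and 2 alone gave -0.51 and arrays 3 and 4 alone gave 0.11, and the difference between these changes, 0.62 ± 0.20, did not pass over all genes (limma, adjusted p = 0.447).

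Pygl, the liver glycogen phosphorylase that releases glucose 1-phosphate, had log2 values of 11.55, 11.30, 11.42 and 11.72 on HNF6KO arrays 1 to 4 against 11.15, 11.31, 11.25 and 11.21 on WT arrays 1 to 4. Of the HNF6KO arrays, 3 lay above every WT array and array 2 lay just under the highest WT array. The means were 11.50 ± 0.18 in HNF6KO and 11.23 ± 0.07 in WT (SD, n = 4 each). The log2 change was 0.27 ± 0.09 (95% interval 0.07 to 0.47, limma, adjusted p = 0.346), or 1.20-fold, and it did not pass with the split as a term either (adjusted p = 0.202). The interval, which is not adjusted for the number of genes, reaches no further than a 1.38-fold higher level.

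The 3 glycogen-targeting subunits differed among themselves in how they varied over the arrays. Ppp1r3b encodes GL, the subunit typical of liver, and had log2 values of 9.97, 9.69, 10.18 and 10.04 on HNF6KO arrays 1 to 4 and 9.79, 9.80, 10.50 and 10.26 on WT arrays 1 to 4. The groups overlapped over most of their range, and the highest values in WT were those of arrays 3 and 4. The log2 change was -0.12 ± 0.17 (95% interval -0.51 to 0.27, limma, adjusted p = 0.904), and its sign turned in 3 of 21 alternative settings.

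Ppp1r3c encodes PTG, a targeting subunit found in many tissues, and had the widest spread of the set. Its log2 values were 7.41, 7.67, 9.54 and 8.47 on HNF6KO arrays 1 to 4, and 8.72, 8.10, 10.21 and 10.39 on WT arrays 1 to 4. On either side of the array split both HNF6KO arrays lay below both WT arrays, but HNF6KO array 3 exceeded WT arrays 1 and 2, so the groups overlapped. The means were 8.28 ± 0.96 in HNF6KO and 9.36 ± 1.12 in WT (SD, n = 4 each). The log2 change was -1.08 ± 0.60 (95% interval -2.45 to 0.29, limma, adjusted p = 0.639). Arrays 3 and 4 lay above arrays 1 and 2 by 1.47 on average in HNF6KO and by 1.89 in WT, which exceeded the difference between the genotypes. Arrays 1 and 2 alone gave -0.87, and arrays 3 and 4 alone -1.29. With the split as a term the SE was 0.23 and the gene still did not pass (limma, adjusted p = 0.0712). Array quality weights brought the log2 change to -0.34 ± 0.61. Kupffer markers, given above, were also higher on arrays 3 and 4 in both genotypes, and their part in the values of Ppp1r3c was not tested.

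Ppp1r3g encodes a targeting subunit of mouse liver whose transcript is known to be induced by fasting. It had log2 values of 7.61, 7.76, 6.93 and 6.82 on HNF6KO arrays 1 to 4, against 8.14, 8.16, 7.41 and 7.13 on WT arrays 1 to 4. It divided the arrays the other way from Ppp1r3c. Arrays 3 and 4 differed from arrays 1 and 2 by -0.81 in HNF6KO and -0.88 in WT, and within each side of the split the HNF6KO arrays again lay below the WT arrays. Without the split the log2 change was -0.43 ± 0.29 (95% interval -1.09 to 0.23, limma, adjusted p = 0.722). With the split as a term the same change had an SE of 0.07 and a 95% interval of -0.59 to -0.27, and it passed (limma, adjusted p = 0.0271). The split was read from the same arrays, so this SE, interval and p can be too small. Arrays 1 and 2 alone gave -0.47 and arrays 3 and 4 alone -0.39. Neither passed over all genes, with the spread pooled over both sides (limma, adjusted p = 0.142 and 0.148). Without both HNF6KO arrays 3 and 4 and with no term for the split, the log2 change was -0.03 ± 0.30. That setting compares HNF6KO arrays 1 and 2 with WT arrays 1 to 4, and so mixes the split with the genotype.

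The promoters of Ppp1r3c and Ppp1r3g, and those of Pfkfb3 and Pklr below, are shown because Ppp1r3c and Ppp1r3g differed in opposite directions across the array split, Pfkfb3 differed most between the genotypes, and Pklr holds a known glucose-response site. RefSeq starts (GRCm38.p6) were found for 6 of the 8 genes, in 8 windows of the 250 bases before the start. Gys2 and Ppp1r3b were not matched. The letters searched on both strands were ATCAAT and ATCGAT (Onecut factors), CACGTG (the E-box of CLOCK, BMAL1 and USF factors), TGACGT (the cyclic AMP response element), CACGNG and CNCGTG with 5 bases between them (the carbohydrate response element of ChREBP, which can hold an E-box), and TAGGTCA (REV-ERB and ROR factors). They were chosen with these sequences in view. Over 32817 such windows of all genes, 7.4% held an Onecut match, 6.02% an E-box and 6.46% TGACGT. A REV-ERB or ROR match was held by 2.24% and the carbohydrate element by 0.0396%. Of the 8 windows, 0 held ATCAAT or ATCGAT and 6 held 1 match each of another kind. Other forms of the Onecut site were not searched, so the 0 does not show that these windows lack one. How many of all windows held a match of any kind was not counted, so no rate stands beside these 6. The 4 RefSeq windows of Pfkfb1 were also searched, and 1 of them (chrX:150587993-150588242, plus strand) held an Onecut match on the minus strand that starts 196 bases before the start. This window is shown because it is the only one of the set with a match to the Onecut letters searched. Which of the 4 starts gives the liver transcript was not determined. Capitals mark these matches. Ppp1r3c lies on the minus strand (chr19:36736605-36736854) with an E-box that starts 104 bases before the start. Ppp1r3g lies on the plus strand (chr13:35967656-35967905) with TGACGT, not followed by CA, that starts 40 bases before the start.
Pfkfb1 second start: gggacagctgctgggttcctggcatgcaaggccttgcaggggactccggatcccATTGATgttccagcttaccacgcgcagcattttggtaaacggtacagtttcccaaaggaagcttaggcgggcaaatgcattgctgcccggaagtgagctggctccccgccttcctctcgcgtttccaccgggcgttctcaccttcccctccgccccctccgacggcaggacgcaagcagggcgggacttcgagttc
Ppp1r3c: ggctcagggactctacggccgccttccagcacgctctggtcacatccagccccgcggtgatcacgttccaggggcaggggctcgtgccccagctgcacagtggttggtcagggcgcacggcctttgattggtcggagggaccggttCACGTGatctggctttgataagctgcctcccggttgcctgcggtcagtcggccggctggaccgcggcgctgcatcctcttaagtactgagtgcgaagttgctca
Ppp1r3g: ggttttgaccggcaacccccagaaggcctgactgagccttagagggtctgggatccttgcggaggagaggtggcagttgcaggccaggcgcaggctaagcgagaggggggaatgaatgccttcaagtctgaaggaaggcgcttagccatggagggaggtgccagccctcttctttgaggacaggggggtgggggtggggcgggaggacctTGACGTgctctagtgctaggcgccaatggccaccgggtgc

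At the entry to glycolysis, the regulator Gckr had the smallest difference of the 8 genes over the 8 arrays. It encodes a liver protein that restrains the use of glucose when glucose is low. Its log2 values were 10.71, 10.55, 10.44 and 10.33 on HNF6KO arrays 1 to 4, and 10.68, 10.45, 10.45 and 10.28 on WT arrays 1 to 4. The groups covered nearly the same range. The log2 change was 0.04 ± 0.10 (95% interval -0.19 to 0.27, limma, adjusted p = 0.959), which bounds a difference in either direction at 1.21-fold before any adjustment for the number of genes.

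Pfkfb3 had the largest difference of the 8 genes over the 8 arrays. It encodes an isoform of the bifunctional enzyme with high kinase activity, which raises fructose 2,6-bisphosphate and so activates phosphofructokinase. Its log2 values were 7.21, 6.82, 7.62 and 7.69 on HNF6KO arrays 1 to 4, against 7.94, 8.44, 9.60 and 8.74 on WT arrays 1 to 4. The highest HNF6KO array lay 0.26 below the lowest WT array, and the WT arrays spread more widely. The means were 7.34 ± 0.40 in HNF6KO and 8.68 ± 0.70 in WT (SD, n = 4 each). The log2 change was -1.35 ± 0.33 (95% interval -2.10 to -0.60), or 2.54-fold lower in HNF6KO, and ranked 296th of 19540 genes by p (limma, adjusted p = 0.187). It did not pass over all genes. Arrays 1 and 2 alone gave -1.17 and arrays 3 and 4 alone -1.52. With the split as a term Pfkfb3 passed, with an SE of 0.19 (limma, adjusted p = 0.0164). As the split was read from the same arrays, that SE and p can be too small. Over 21 alternative settings the log2 change stayed between -1.67 and -1.04, and without WT array 3, the highest array, it was -1.04 ± 0.25 (adjusted p = 0.260).

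Pfkfb3 is also transcribed in macrophages and endothelial cells. Of 11 Kupffer cell and macrophage markers 0 passed in limma, beside 0.399% of all genes, with a median log2 change of 0.09. At an unadjusted p of 0.05, 0 were higher and 0 lower, beside 4.3% and 5.21% of all genes. Clec4f averaged 9.82 in HNF6KO and 9.75 in WT, and Vsig4 averaged 9.04 in HNF6KO and 8.99 in WT. Of 6 endothelial markers 0 passed in limma and 0 had an unadjusted p under 0.05, beside the same shares of all genes. Their median log2 change was 0.20. Stab2 averaged 9.24 in HNF6KO and 9.13 in WT, and Clec4g averaged 9.73 in HNF6KO and 9.66 in WT. The mean level of each list overlapped between the groups, at 7.74 to 9.34 in HNF6KO and 7.69 to 8.94 in WT for Kupffer markers, and at 8.28 to 9.18 in HNF6KO and 8.18 to 9.03 in WT for endothelial markers. The log2 changes of all 17 markers lay above 0, beside 8318 of 19540 genes. The markers varied largely together over the arrays, so these are not 17 separate observations. The part of these cells in the Pfkfb3 values was not tested. In whole liver, fewer cells of a type and less RNA per cell cannot be told apart.

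The windows before both Pfkfb3 starts in RefSeq are on the minus strand. The upstream start (chr2:11553930-11554179) had TGACGT, not followed by CA, that starts 62 bases before it. The downstream start (chr2:11502091-11502340) had an E-box that starts 53 bases before it. Which start the liver transcripts used was not measured.
Pfkfb3 upstream start: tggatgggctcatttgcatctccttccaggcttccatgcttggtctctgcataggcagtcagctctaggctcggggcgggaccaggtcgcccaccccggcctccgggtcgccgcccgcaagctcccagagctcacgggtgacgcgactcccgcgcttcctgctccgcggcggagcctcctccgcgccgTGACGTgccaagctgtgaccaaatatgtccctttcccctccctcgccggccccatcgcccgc
Pfkfb3 downstream start: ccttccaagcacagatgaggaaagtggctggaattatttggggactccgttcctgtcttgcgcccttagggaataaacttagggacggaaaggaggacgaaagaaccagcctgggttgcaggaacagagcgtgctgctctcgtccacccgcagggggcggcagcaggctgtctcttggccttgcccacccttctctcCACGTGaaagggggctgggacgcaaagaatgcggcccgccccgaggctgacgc

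By likeness over the 8 arrays, the 3 genes nearest to Pfkfb3 were Trp53inp2, Ablim3 and Sdr9c7. The measure was the root mean square difference of log2 values, each gene centred on its own mean, and came to 0.37 for Trp53inp2, 0.42 for Ablim3 and 0.43 for Sdr9c7, where Pfkfb3 itself varied by 0.83 around its mean. These genes were chosen for their likeness to Pfkfb3 on the same arrays, so the gap between the genotypes restates that choice. Trp53inp2, which encodes a protein of autophagy, averaged 10.04 ± 0.34 in HNF6KO and 10.87 ± 0.32 in WT (SD, n = 4 each).

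At the end of the pathway, Pklr encodes the pyruvate kinase of liver and red cells, whose transcript is known to follow glucose and insulin. Its log2 values were 11.83, 10.63, 11.62 and 12.13 on HNF6KO arrays 1 to 4, and 11.13, 11.02, 11.31 and 10.62 on WT arrays 1 to 4. HNF6KO arrays 1, 3 and 4 lay above every WT array, while HNF6KO array 2 lay level with the lowest WT array. The means were 11.55 ± 0.65 in HNF6KO and 11.02 ± 0.29 in WT (SD, n = 4 each), with a log2 change of 0.53 ± 0.29 (95% interval -0.13 to 1.20, limma, adjusted p = 0.634). Without HNF6KO array 2 the change was 0.84 ± 0.17 and still did not pass (adjusted p = 0.136), and without HNF6KO array 4 it was 0.34 ± 0.28 (adjusted p = 0.861). Arrays 1 and 2 alone gave 0.16 and arrays 3 and 4 alone gave 0.91. Array 2 of HNF6KO was also far below the others for Slc2a2, the glucose transporter of hepatocytes, a gene chosen after its values were seen. Slc2a2 had log2 values of 11.81, 9.59, 11.91 and 12.12 on HNF6KO arrays 1 to 4, against 11.79 to 12.17 on WT arrays.

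Pklr has an upstream start, which gives the red cell form, and a downstream start, which gives the liver form. The liver window (chr3:89136373-89136622, plus strand) holds a carbohydrate response element that starts 170 bases before the start, and 13 of the 32817 windows matched this pattern. The other Pklr window, not shown, holds TAGGTCA on the minus strand, 151 bases before its start, and those of Pygl and Gckr held no match to the patterns searched.
Pklr liver start: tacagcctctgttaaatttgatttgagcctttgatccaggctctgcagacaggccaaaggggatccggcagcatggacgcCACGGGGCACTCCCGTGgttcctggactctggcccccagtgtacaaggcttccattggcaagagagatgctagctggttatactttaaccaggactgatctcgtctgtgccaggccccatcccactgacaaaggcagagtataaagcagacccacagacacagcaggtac

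**Figure D2:**
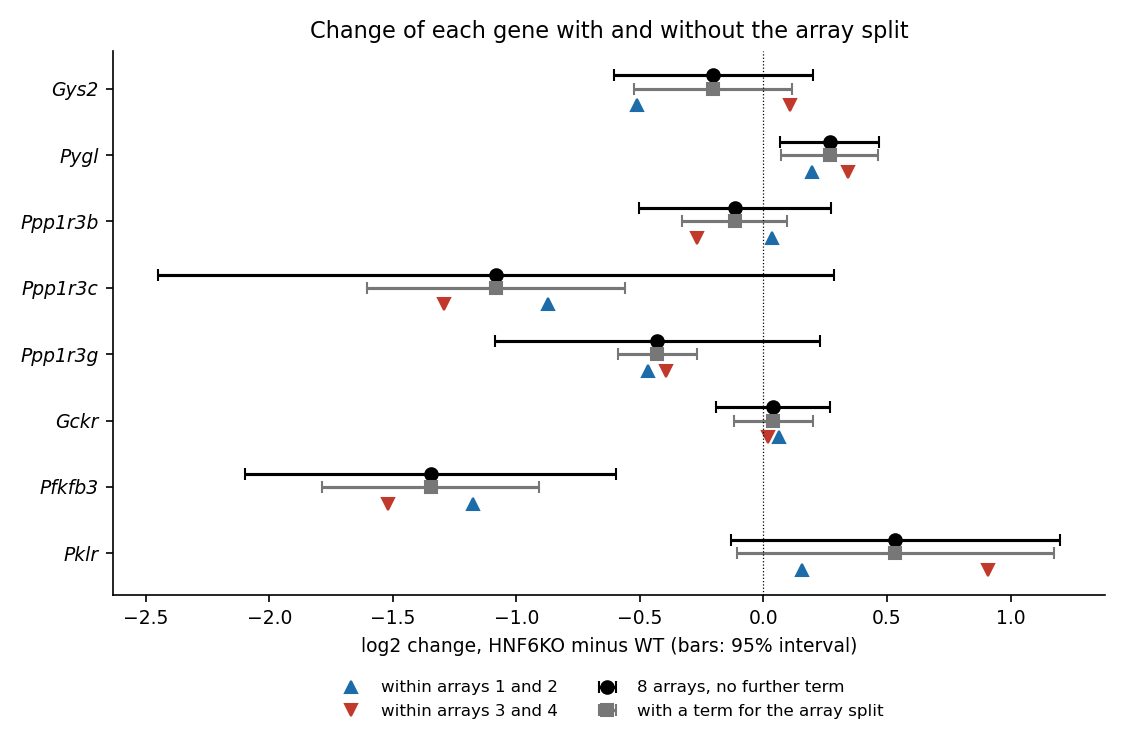
Log2 change, HNF6KO minus WT (x axis), of the 8 genes with its 95% interval in the fit of all 8 arrays (black circles) and with the array split as a term (grey squares), and the change within arrays 1 and 2 and within arrays 3 and 4 (triangles). The point estimates of both fits are equal, and the 95% interval of Ppp1r3g is -0.59 to -0.27 with the term, against -1.09 to 0.23 without it. The split was read from the same arrays, so intervals with the term can be too narrow.

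The other genes of glycogen metabolism had small differences. Of 29 symbols listed, 26 were measured, and 0 of these passed in limma, beside 0.399% of all genes. At an unadjusted p of 0.05, 0 were higher and 2 lower, beside 4.3% and 5.21% of all genes. The log2 changes ran from -0.28 to 0.30 with a median of -0.02, against -0.01 over all genes. Gaa, the lysosomal acid glucosidase that degrades glycogen, had a change of -0.26 ± 0.08 (adjusted p = 0.325). Ppp1r3e, another targeting subunit, averaged 7.68 ± 0.13 in HNF6KO and 7.85 ± 0.02 in WT (SD, n = 4 each). Its groups did not overlap, which held for 1 of the 26 beside 5.67% of all genes, and its change of -0.17 ± 0.07 did not pass (limma, adjusted p = 0.481). Gsk3a, a kinase that inactivates glycogen synthase, had a change of -0.28 ± 0.14 (adjusted p = 0.570). Pgm2, a phosphoglucomutase chosen after its values were seen, passed within arrays 3 and 4 (log2 change 0.42 ± 0.06, limma, adjusted p = 0.0488, beside 0.328% of all genes), but not over the 8 arrays (0.30 ± 0.18, adjusted p = 0.675). The SE and p within arrays 3 and 4 pooled the spread of both sides of the split.

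The other glycolysis genes without overlap between the groups lay in both directions. Of 29 listed, 23 were measured and 0 passed in limma, beside 0.399% of all genes. At an unadjusted p of 0.05, 3 were higher, beside 4.3% of all genes, and 3 lower, beside 5.21%, and the median log2 change was 0.01. The groups did not overlap for 4 of the 23, beside 5.67% of all genes. Aldoc, an aldolase isoform, had log2 values of 7.47, 7.37, 7.65 and 6.90 on HNF6KO arrays 1 to 4, against 8.26, 7.93, 7.81 and 8.13 on WT arrays 1 to 4. Every HNF6KO array lay below every WT array, and the change was -0.69 ± 0.16 (limma, adjusted p = 0.159). Ldha, a subunit of lactate dehydrogenase, had values of 11.96, 12.11, 12.21 and 12.23 on HNF6KO arrays 1 to 4, against 12.26, 12.49, 12.54 and 12.55 on WT arrays 1 to 4. Its change of -0.33 ± 0.08 did not pass (adjusted p = 0.207). Ldha passed with the split as a term (limma, adjusted p = 0.0406), a fit whose p-values can be too small. Pgk1, the phosphoglycerate kinase, had a change of 0.19 ± 0.06 in the other direction (adjusted p = 0.331). Hk1, a hexokinase, is named here because it is the remaining gene without overlap. Its change was 0.12 ± 0.05 by the probe set used here and 0.04 ± 0.10 by another. The probe set used averaged 12.13 in HNF6KO and 12.01 in WT, while the other averaged 6.8 in both. Which transcripts these probe sets read was not tested.

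The regulators of glucose-responsive transcription and of insulin and glucagon signalling did not pass either. Of 24 listed, 21 were measured and 0 passed in limma, beside 0.399% of all genes. At an unadjusted p of 0.05, 0 were higher and 1 lower, beside 4.3% and 5.21% of all genes. Of these 21, 6 had log2 changes above 0 and 15 below, with a median of -0.08, against -0.01 over all genes, of which 8318 lay above 0 and 11222 below. Usf2, an E-box factor of the Pklr promoter, had a change of -0.21 ± 0.08 (adjusted p = 0.459), and its partner Usf1 one of -0.14 ± 0.07 (adjusted p = 0.620). Ppargc1a, the coactivator of fasting genes, had a change of 0.44 ± 0.20 (adjusted p = 0.538).

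**Figure D3:**
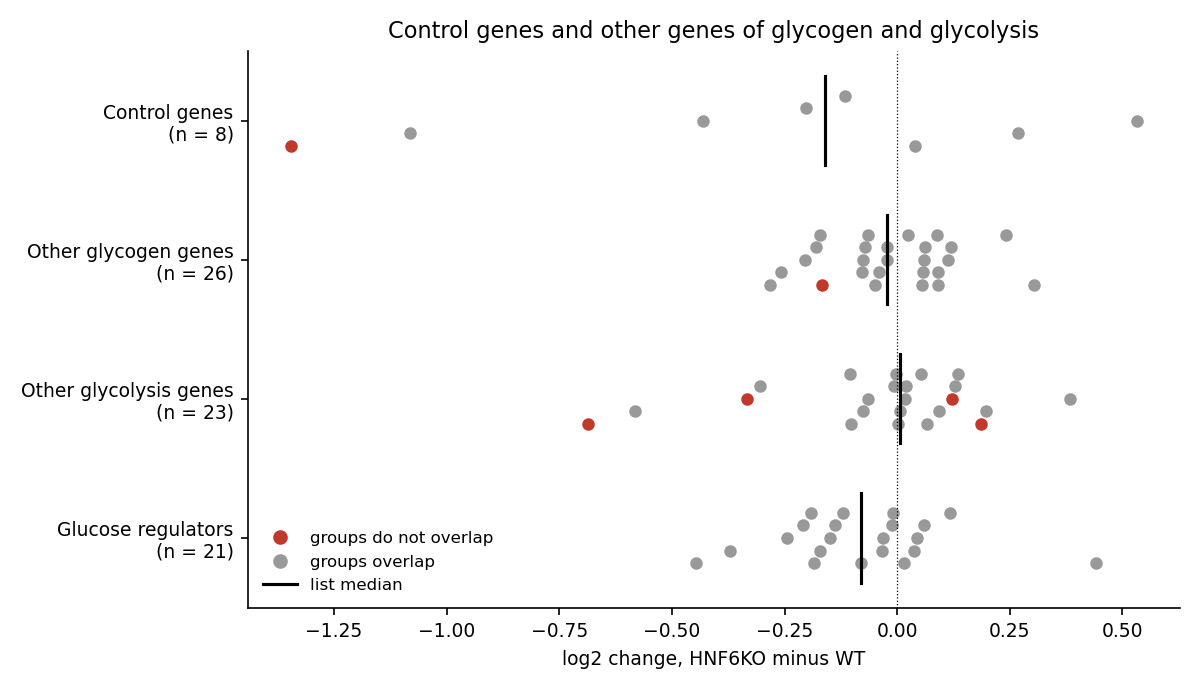
Log2 changes, HNF6KO minus WT (x axis), of the 8 control genes and of the measured genes of the 3 further lists, 1 point per gene, with the median of each list as a vertical line. Red points are genes whose groups do not overlap, which are Pfkfb3 in the first row, Ppp1r3e in the second, and Aldoc, Ldha, Hk1 and Pgk1 in the third.

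Markers of further cell types that liver samples can hold were set beside these results. Median log2 changes were 0.06 for stellate cells and fibroblasts (6 measured), 0.01 for bile duct (5) and 0.0038 for T and B cells (5). They were -0.04 for adipocytes (3), -0.01 for skeletal muscle (5) and -0.01 for pancreas (4). Of these markers 0 passed in limma, beside 0.399% of all genes. At an unadjusted p of 0.05, 1 was higher (Cd3g of T cells, beside 4.3% of all genes) and 1 lower (Lep of adipocytes, beside 5.21%). The mean levels of muscle markers were 6.91 to 7.06 in HNF6KO and 6.93 to 7.02 in WT. Of 4 erythroid markers only Alas2, the heme synthesis enzyme of red cell precursors, was measured. It averaged 8.83 in HNF6KO and 9.81 in WT without overlap, beside 3.21% of all genes lower without overlap. Its log2 change was -0.98 ± 0.19 (limma, adjusted p = 0.0925). Red cell precursors also use Pklr, whose log2 change was above 0, and their part in its values was not tested.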

How the data were processed

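Liver RNA of 4 HNF6KO and 4 WT samples was measured on Affymetrix arrays, with Trizol extraction and biotin labelling per the labels' protocols. The authors deposited a table of probe sets by arrays, whose values were read as log2 expression from their range. What the authors did to make these log2 values (log base, background, scaling, summarising of probes) is stated neither in the labels nor in the file header. Of 22725 probe sets, 21113 had 1 symbol, 43 several and 1569 none here; the brightest of a symbol stood for each of 19540 genes. The probe annotation names no genome build. Differences were tested with limma 3.58.1 in R 4.3.3 (lmFit, eBayes), p-values adjusted by Benjamini-Hochberg over the 19540 genes, and a call at 0.05, and the step was tested on simulated data. The number of arrays limits the precision.

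The members, lists and array split were chosen with earlier results of these data known. The text names all members, Onecut1, the 3 smallest p of each of the 3 gene lists, the 3 nearest genes by likeness, and, of the Kupffer, endothelial and hepatocyte markers, the first 2 listed, beside genes said to be chosen after their values were seen or by their p or overlap. No array was a copy of another (r 0.987 to 0.997). Alternatives were 3 normalizations, a filter at the 40th percentile, trend with robust variances, array weights, 2 probe set rules, the array number as a block, the array split, and arrays left out.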

Additional observations from a re-analysis of the deposited data

Results flagged for a closer look

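In 24 genes checked within each genotype (48 groups of 4 arrays), 2 arrays lay far from the other 3 of their group, with a gap to the nearest array, as a share of the group's range, above Dixon's 95% critical value, where chance gives about 1 in 20 groups. The genes included Slc2a2, Hk1 and Pgm2, which were chosen after their values were seen, so that rate cannot be set against their values. Slc2a2 on HNF6KO array 2 had a log2 value of 9.59, with 11.81 as the nearest of its group. Hk1 on HNF6KO array 3 had 12.23, with 12.11 as the nearest.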

How the results depend on the processing

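No member passed under any of 3 normalizations, the filter, trend with robust variances, array weights, both probe set rules, the comparison within either side of the array split, or any array left out, where the count of members past the threshold stayed at 0. With the array split as a term the count was 2 members (Pfkfb3 and Ppp1r3g) and 1 other glycolysis gene (Ldha), with 245 of all genes past the threshold against 78 without the term. As the split was read from these arrays, the counts with its term can be too high. The replicate block (array number) gave the same counts, 2 members (Pfkfb3, adjusted p = 0.0434, and Ppp1r3g, 0.0420) and 1 other glycolysis gene, with 125 of all genes. Same-numbered arrays of the genotypes had correlated deviations of 0.439, 0.167, 0.506 and 0.0233, and HNF6KO array 2 correlated best with WT array 1, so the numbers were not taken to pair the samples. Within arrays 3 and 4, 1 other glycogen gene passed (Pgm2). The log2 change of Ppp1r3b turned to 0.026 with array weights and 0.036 within arrays 1 and 2, and ran from -0.22 to 0.023 with single arrays left out (above 0 without WT array 3). That of Gckr turned to -0.024 with array weights and ran from -0.027 to 0.11 with single arrays left out (below 0 without HNF6KO array 1 or WT array 4). That of Gys2 was 0.11 within arrays 3 and 4. The cause was not tested. Pygl, Ppp1r3c, Ppp1r3g, Pfkfb3 and Pklr kept their sign in all 21 settings. Array weights gave 202 genes past the threshold, and single arrays left out gave 16 to 79. The values used here carry no background level, so which genes lie near background was not measured.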
